A study of Mus musculus with 26 samples.

Results

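The genes described here are 10 genes of antigen presentation, H2-Ab1, H2-Aa, H2-Eb1, Cd74, Ciita, Psmb8, Psmb9, Tap1, Tapbp and B2m, out of 18193 genes named on the array. They were chosen by function and symbol, and each was read from the brightest of the probe sets annotated to it alone, a probe set being the group of short array probes that measures 1 transcript. RNA of 26 immortalized clonal adipose cell lines was measured with 1 Affymetrix mouse array per clone. Of the clones, 23 came from the inguinal depot, a site of white and beige fat, and 3 (BAT1, BAT6 and BAT8) from the interscapular depot, the classical site of brown fat. All 26 lines were made from mice of the background strain 129SVE from Taconic, were fully differentiated in culture, and were treated with forskolin, an activator of adenylyl cyclase, for 4 h. The sample protocols give a forskolin concentration of 10 mM and the series text one of 10 microM, and no untreated clone was analysed here, so every value belongs to the treated state. Age and sex of the donor mice are not given in the sources used here. Each clone is 1 line on 1 array, so the spread between clones includes both clonal and technical differences, and p-values describe the spread between these lines.

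Cells show peptides to T cells by 2 routes. In the class I route, which nearly all nucleated cells use, the proteasome cuts cytosolic proteins, the transporter TAP carries the peptides into the endoplasmic reticulum, and tapasin helps to load them on a heavy chain held by beta-2-microglobulin. In the class II route, used mainly by dendritic cells, macrophages and B cells, an alpha and a beta chain travel with the invariant chain Cd74 to endosomes, and the transactivator Ciita switches on their genes. Interferons raise genes of both routes, and interferon gamma can induce class II genes in cells that do not otherwise express them, adipocytes among them.

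Promoters are shown first for Psmb8, Tap1 and B2m, which were all lowest in the same interscapular clone, and for H2-Aa, a class II chain that stayed dim in every clone. Psmb9 and Tap1 lie back to back and share 1 upstream region. RefSeq promoter windows (GRCm38.p6) were held for 7 of the 10 members, and the 250 bases before the annotated start were searched on both strands for the letters CCAAT, the core of the box bound by NF-Y, for TTCNNNGAA, the palindrome of the gamma interferon activated site, for GAAANNGAA, the core of the interferon response element, and for TGACGTCA, the cAMP response element. These letters are held by 33.8%, 7.02%, 7.13% and 1.55% of the 32851 promoter windows of the same length. No match to these letters overlapped another. Capitals mark the matches in the sequences, which run 5′ to 3′ on the strand of the gene.
Psmb8, chr17:34197945-34198194, plus strand: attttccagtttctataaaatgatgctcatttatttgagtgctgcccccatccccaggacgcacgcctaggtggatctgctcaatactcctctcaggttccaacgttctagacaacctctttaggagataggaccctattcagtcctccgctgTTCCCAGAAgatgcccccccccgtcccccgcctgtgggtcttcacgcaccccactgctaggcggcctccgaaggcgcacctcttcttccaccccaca
Tap1, chr17:34187306-34187555, plus strand: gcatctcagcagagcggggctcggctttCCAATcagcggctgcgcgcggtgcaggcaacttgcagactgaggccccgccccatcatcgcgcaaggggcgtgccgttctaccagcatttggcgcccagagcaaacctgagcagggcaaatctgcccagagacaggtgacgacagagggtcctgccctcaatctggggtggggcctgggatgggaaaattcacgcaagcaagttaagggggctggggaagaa
B2m, chr2:122147437-122147686, plus strand: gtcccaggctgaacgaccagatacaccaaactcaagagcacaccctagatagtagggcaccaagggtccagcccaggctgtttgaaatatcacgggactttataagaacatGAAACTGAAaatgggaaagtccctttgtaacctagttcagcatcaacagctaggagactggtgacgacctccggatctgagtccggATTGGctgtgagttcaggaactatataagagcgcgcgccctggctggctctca
H2-Aa, chr17:34287824-34288073, minus strand: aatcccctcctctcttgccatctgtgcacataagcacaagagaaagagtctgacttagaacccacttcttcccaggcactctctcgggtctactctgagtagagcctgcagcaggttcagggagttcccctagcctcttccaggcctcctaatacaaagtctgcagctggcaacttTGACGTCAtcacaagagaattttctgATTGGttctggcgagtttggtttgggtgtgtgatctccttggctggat

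The Psmb8 window held 1 match, to the gamma interferon activated site, 97 bases before the start. The Tap1 window held a CCAAT box 222 bases before the start, and the start of Psmb9 lies on the other strand with 225 bases between both starts, so the same letters lie 8 bases before the start of Psmb9. B2m held an interferon response element 139 bases and a CCAAT box, on the other strand, 53 bases before its start. H2-Aa held a cAMP response element 74 bases and a CCAAT box 48 bases before its start. The windows of H2-Eb1 and Tapbp each held 2 matches to CCAAT. A match describes letters and does not show that a factor binds.

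All values below are log2(intensity + 16), called log2 values, and a difference of 1 on this scale is a doubling of the intensity plus 16, so that changes of dim genes are understated. The median of all probe sets lay between 5.82 and 5.95 on the 26 arrays and serves as a mark of a dim signal. A gene was tested when it lay above the array median on at least 3 arrays. This held for 9 of the 10 members, and H2-Aa was left out. In a comparison of both depots with limma over 12734 genes, with Benjamini-Hochberg adjustment and a threshold of 0.05, 10.2% of genes passed, 4.55% higher and 5.65% lower in interscapular clones. Among the 9 members 1 was higher (H2-Ab1), 1 was lower (Psmb8) and 7 passed in neither direction, and their median difference was -0.00114 against -0.02 over all genes. Of the 9, 4 had an unadjusted p under 0.05, which 25.7% of all genes had. No member had depots that did not overlap, against 2.87% of all genes.

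**Figure D1:**
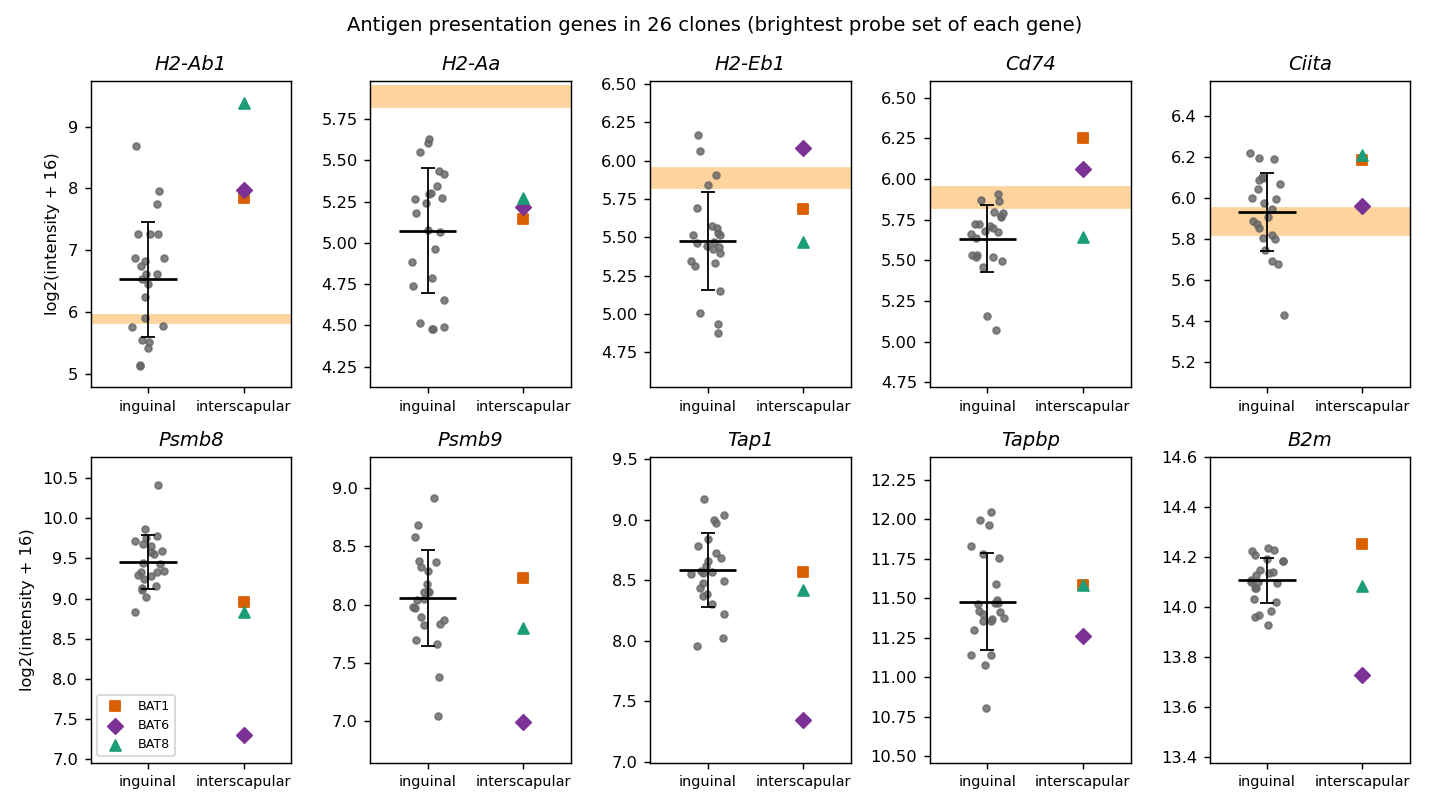
Log2 value (y axis) of each gene in the 23 inguinal clones (grey points, with their mean and SD as a line and bar) and in BAT1, BAT6 and BAT8 (coloured symbols), with a y range of its own in each panel. The orange band marks the range of the array medians, 5.82 to 5.95. All H2-Aa points lie below the band, and BAT6 is the lowest of all clones for Psmb8, Psmb9, Tap1 and B2m.

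H2-Ab1, the beta chain of the class II molecule I-A, was the member that varied most. Among inguinal clones its log2 value ran from 5.13 in X7 over a median of 6.62 to 8.68 in B5, and it was 7.85 in BAT1, 7.97 in BAT6 and 9.39 in BAT8. The inguinal SD was 0.93, against a median of 0.32 over all genes, and 15 of the 23 inguinal and all 3 interscapular clones lay above the array median. The lowest 5 inguinal clones lay at 5.55 or below, among them X9 at 5.41, N13 at 5.15, G10 at 5.51 and G12 at 5.55, while B5, E1 at 7.96 and X3 at 7.76 formed the upper end. The 3 interscapular clones lay above 21 of the 23 inguinal clones, with B5 and E1 inside their range.

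The interscapular mean of H2-Ab1 was 8.40 ± 0.86 (SD, n = 3), and the inguinal mean was 6.53 ± 0.93 (SD, n = 23). The difference of 1.88 (SE 0.53, 95% interval 0.80 to 2.96) had a limma adjusted p of 0.0208. An exact two-sided permutation test over the 2600 choices of 3 clones from 26 gave p = 0.00346, not adjusted for the number of members, where the smallest p the test allows is 0.000385. The difference was 2.09 with an adjusted p of 0.0647 in limma without BAT6, and 1.38 with an adjusted p of 0.19 without BAT8. With all probe sets of a gene averaged it was 0.97, with an adjusted p of 0.0578 in limma.

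The gene has 3 probe sets, and the 2 dimmer ones gave a similar order of clones. Over the 23 inguinal clones each of the 3 pairs of probe sets had a Pearson r of 0.83, which describes clones on the same arrays. B5 was the highest inguinal clone on all 3 probe sets, with 8.68, 6.54 and 5.73. The dimmer probe sets exceeded the array median in 2 and 0 inguinal clones. They gave depot differences of 0.58 and 0.47, smaller than that of the brightest, and on them BAT1 lay among the inguinal clones, at 5.32 and 4.72. The name of the brightest probe set carries the maker's mark for probes that can match more than 1 transcript. That of the dimmest carries the mark for probes that can match other sequences.

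**Figure D2:**
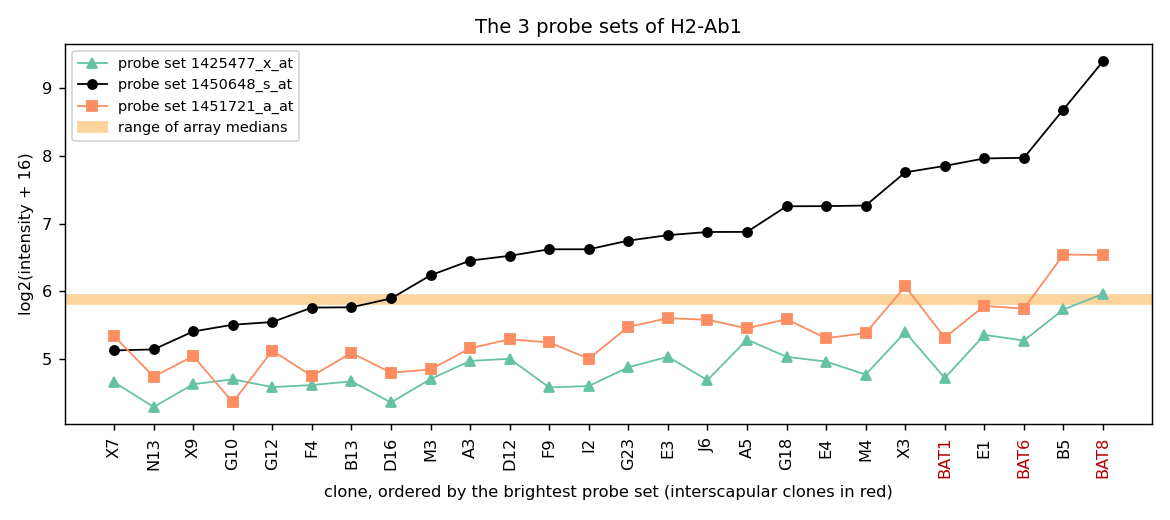
Log2 value (y axis) of the 3 probe sets of H2-Ab1 in the 26 clones, ordered along the x axis by the brightest (black), with interscapular clones in red and the range of the array medians as an orange band. The brightest runs from 5.13 in X7 to 9.39 in BAT8, and all 3 are high in B5 and BAT8.

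The partners that H2-Ab1 needs for a class II molecule were dim. H2-Aa, the alpha chain of I-A, lay below the array median on all 26 arrays with each of its 4 probe sets. Its brightest gave 4.48 to 5.63 in inguinal clones, with a median of 5.18, and 5.14, 5.22 and 5.27 in BAT1, BAT6 and BAT8. Its probe sets did not share an order of clones, with Pearson r between -0.60 and 0.25 over 23 inguinal clones. No order of clones was therefore read from H2-Aa.

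H2-Eb1, the beta chain of the second class II molecule I-E, exceeded the array median in 3 inguinal clones and in BAT6. Its log2 value ran from 4.87 over a median of 5.46 to 6.17 in X3, and it was 5.69 in BAT1, 6.09 in BAT6 and 5.47 in BAT8. The interscapular clones thus lay within the inguinal range, and the depot difference was 0.27 (SE 0.20, limma adjusted p 0.406).

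Cd74, the invariant chain that fills the class II groove until the endosome, was above the array median in 4 clones, 2 inguinal and 2 interscapular. It met the filter of 3 arrays only with interscapular clones counted, so its limma test is not independent of the filter. The log2 value of Cd74 ran from 5.07 over a median of 5.68 to 5.91 in inguinal clones. It was 6.25 in BAT1, 6.06 in BAT6 and 5.64 in BAT8. BAT1 and BAT6 lay above all 23 inguinal clones and BAT8 lay in the middle of them. The difference of 0.35 (SE 0.14) did not pass in limma with an adjusted p of 0.116. An exact permutation test of Cd74 alone gave an unadjusted p of 0.0162. In B5, the inguinal clone with the most H2-Ab1, Cd74 was at 5.16, near its lowest value.

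Ciita, the class II transactivator, stayed near the array median, from 5.43 over a median of 5.95 to 6.22 in inguinal clones and at 6.19, 5.96 and 6.21 in BAT1, BAT6 and BAT8. Its difference of 0.19 (SE 0.13) had a limma adjusted p of 0.380. Its other 2 probe sets were above the array median on no array. When each gene was regressed on Ciita over the 23 inguinal clones, limma called 0% of 12733 genes and 0 of 8 members, while 805 genes (6.32%) and 1 member, Tapbp with a negative slope of -0.70, had an unadjusted p under 0.05. The slope of H2-Ab1 on Ciita was 0.74 with a 95% interval from -1.24 to 2.73. The inguinal SD of Ciita itself was 0.19, so these slopes rest on a narrow range of a dim gene.

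Markers of cells that use the class II route were set beside these values. Of 13 macrophage and dendritic cell markers, all on the array, 9 were tested and 1 passed the depot test, where 10.2% of all genes did. It was the lysosomal protein Cd68, with 8.30, 9.74 and 10.48 in BAT1, BAT6 and BAT8. The inguinal median of Cd68 was 7.28 and its limma adjusted p was 0.00277. The mean of all 13 markers was 6.56, 6.50 and 6.62 in BAT1, BAT6 and BAT8 and 6.09 to 6.47 in inguinal clones. Ptprc, the common leukocyte antigen, Itgam and Tyrobp lay below the array median on all 26 arrays. Adgre1, Cd14, Cd68, Csf1r, Fcer1g and Laptm5 lay above it on all 26, for example Csf1r at 8.34 to 9.59 in inguinal clones and at 9.17, 8.97 and 9.58 in BAT1, BAT6 and BAT8. The other 4 (Cx3cr1, Itgax, Lyz2 and Mrc1) exceeded it in some clones. Each sample is a clonal adipose line and not a tissue, so marker RNA here does not count immune cells. Its relation to the H2-Ab1 values was not tested. Of 4 B cell markers 3 were on the array and none was tested, and their mean was 4.84 to 5.33 in inguinal clones against 5.01, 4.86 and 5.02. Cd79a and Ms4a1, which define B cells, lay below the array median on all 26 arrays. In bulk RNA of a clonal line, fewer cells that express a gene and less RNA per cell cannot be told apart.

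No gene of the wider class II list passed the depot test. Of 10 such partners 9 were on the array and 5 were tested, and 0 passed in limma in the depot comparison, also 0 at an unadjusted p under 0.05 (25.7% of all genes), with a median difference of 0.20. They include H2-DMa, the subunit of the peptide editor, which was 5.47 to 6.97 in inguinal clones with a median of 6.29 and 6.19, 6.24 and 7.06 in BAT1, BAT6 and BAT8. Ctss, the protease that trims the invariant chain in antigen presenting cells, lay above the array median in no clone. H2-DMb2, a beta chain of the peptide editor, lay above it in all 26, at 6.35 to 7.60 in inguinal clones and 7.22, 7.51 and 6.93 in BAT1, BAT6 and BAT8. So did Ctsl, Lgmn and Ifi30, endosomal enzymes of many cells.

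Psmb8, the immunoproteasome subunit that replaces Psmb5, was the member that was lower in interscapular clones. Its log2 value ran from 8.83 in G10 over a median of 9.43 to 10.41 in N13 among inguinal clones, and it was 8.96 in BAT1, 7.31 in BAT6 and 8.84 in BAT8. BAT6 lay below all 23 inguinal clones and BAT1 and BAT8 lay at their lower end, with 22 inguinal clones above BAT1. The means were 8.37 ± 0.92 (SD, n = 3) and 9.46 ± 0.34 (SD, n = 23). The difference of -1.09 (SE 0.25, 95% interval -1.60 to -0.58) had a limma adjusted p of 0.0052 and an exact two-sided permutation p of 0.00115. Without BAT6 the difference was -0.56 with a limma adjusted p of 0.211. A second probe set of Psmb8 lay above the array median on no array and gave a difference of -0.365. It had a Pearson r of 0.17 with the brightest over the 23 inguinal clones. With both probe sets averaged the difference was -0.73, with a limma adjusted p of 0.0037.

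Psmb9, the immunoproteasome subunit that replaces Psmb6, ran from 7.05 in E3 over a median of 8.05 to 8.92 in A3 and was 8.23, 6.99 and 7.80 in BAT1, BAT6 and BAT8. BAT6 was again below all inguinal clones, while BAT1 and BAT8 lay among them. The difference of -0.38 (SE 0.26) did not pass in limma (adjusted p 0.362), and its 95% interval ran from -0.90 to 0.14. Psmb8 and Psmb9 had a Pearson r of 0.50 over the 23 inguinal clones, the highest of the pairs of members.

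Of the other proteasome genes, constitutive, immunoproteasome and cap, 1 passed, where 10.2% of all genes did. Of 5 tested proteasome partners, Psmb5, the constitutive subunit that Psmb8 replaces, was lower in interscapular clones with a difference of -0.59 (SE 0.16, limma adjusted p 0.0159). It was 11.25, 10.72 and 10.41 in BAT1, BAT6 and BAT8, against an inguinal range of 10.74 to 11.74 with a median of 11.43. Psmb10, the third immunoproteasome subunit, differed by -0.58 (SE 0.26, adjusted p 0.15) and Psme1, a subunit of the activator cap, by -0.49 (SE 0.19, adjusted p 0.102) in limma. Psmb6, the constitutive subunit that Psmb9 replaces, differed by -0.59 (SE 0.21, adjusted p 0.075) and Psmb7, which Psmb10 replaces, by -0.16 (SE 0.19, adjusted p 0.632) in limma. The median difference of these 5 genes was -0.58, against -0.02 over all genes. The call of Psmb5 was lost without BAT6 (-0.56, adjusted p 0.11) and without BAT8 (-0.40, adjusted p 0.197) in limma.

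**Figure D3:**
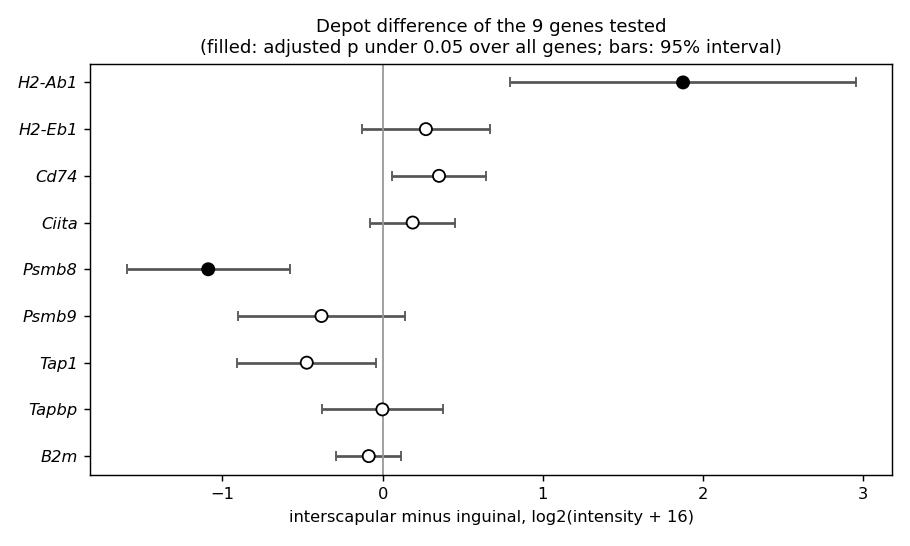
Depot difference (x axis, log2 units, interscapular minus inguinal) of the 9 genes tested, with 95% intervals from limma. Filled points passed an adjusted p of 0.05 over all genes, H2-Ab1 at 1.88 and Psmb8 at -1.09, and the open points did not.

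Tap1, the transporter subunit, ran from 7.96 in E3 over a median of 8.57 to 9.17 in D16 and was 8.56, 7.34 and 8.42 in BAT1, BAT6 and BAT8. BAT6 was below all inguinal clones, and BAT1 and BAT8 lay among them. The depot difference of -0.47 (SE 0.21) did not pass in limma (adjusted p 0.153), and the exact permutation test of Tap1 alone gave an unadjusted p of 0.0458. Its other 3 probe sets lay above the array median on no array. Tap2, the partner subunit, showed the same order, at 6.49, 5.49 and 6.45 against an inguinal range of 5.91 to 7.98, with a difference of -0.58 (SE 0.25, limma adjusted p 0.142).

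Tapbp, the loading chaperone tapasin, ran from 10.81 in G18 over a median of 11.42 to 12.05 in D16 and was 11.59, 11.26 and 11.59 in BAT1, BAT6 and BAT8. The difference of -0.00114 (SE 0.18) lay within a 95% interval of -0.38 to 0.38 (limma adjusted p 0.998). A dimmer probe set gave another picture, at 8.01, 5.91 and 7.76 with an inguinal mean of 7.66 ± 0.67 (SD, n = 23) and 22 of 23 inguinal clones above BAT6. The 2 probe sets had a Pearson r of 0.55 over the 23 inguinal clones.

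B2m, the light chain of class I molecules, was the member that varied least, with an inguinal SD of 0.09 around a mean of 14.11. It ran from 13.93 in E3 to 14.24 in D16 and was 14.25, 13.73 and 14.08 in BAT1, BAT6 and BAT8. BAT6 lay below all 23 inguinal clones and BAT1 just above them. The depot difference of -0.09 (SE 0.10) did not pass in limma (adjusted p 0.632). Its second probe set, with a similar inguinal mean of 14.10, gave 14.26, 13.78 and 14.12. There 1 inguinal clone, I2 at 13.66, lay below BAT6.

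On the brightest probe sets BAT6 was thus below all 23 inguinal clones for Psmb8, Psmb9, Tap1 and B2m, 4 of the 5 class I pathway members. On the second B2m probe set, which is about as bright, 1 inguinal clone lay below BAT6. Over all genes BAT6 lay below all 23 for 11%. The mean of the 5 class I pathway members was 9.33 in BAT6, 10.32 in BAT1 and 10.15 in BAT8, and 9.89 in E3 to 10.73 in A3 among inguinal clones. The mean of the 28 interferon response genes was 7.38 in BAT6, 8.87 in BAT8 and 10.28 in BAT1, against 9.14 to 11.03 in inguinal clones, so BAT6 and BAT8 both lay below all 23. The actin probe sets at the 3′ and 5′ ends, whose log2 ratio tracks RNA quality, differed most in BAT6, at 1.15 against at most 0.99 in inguinal clones, and its part in these values was not tested. With the interferon mean as a covariate the differences became -0.63 for Psmb8 (limma adjusted p 0.150) and 1.42 for H2-Ab1 (limma adjusted p 0.198).

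**Figure D4:**
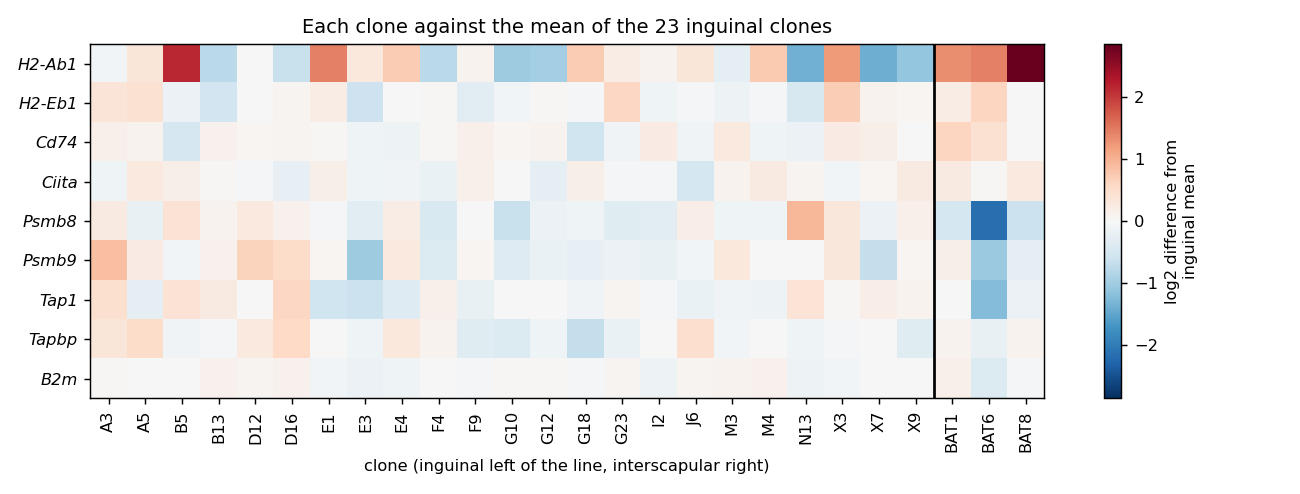
Log2 difference of each clone (columns) from the mean of the 23 inguinal clones for the 9 genes tested (rows), in red where higher and in blue where lower. The BAT6 column is blue from Psmb8 to B2m, and the H2-Ab1 row holds the widest range, from X7 at 5.13 to BAT8 at 9.39 on the log2 scale.

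Of 30 interferon response genes 28 were on the array and 10 were lower in interscapular clones in limma, with a median difference of -1.12. Without BAT6 this count was 1 (Trim25), without BAT8 it was 4 and without BAT1 it was 20. Among the 9 members limma called 0 without BAT6, where 2 had an unadjusted p under 0.05. It called 1 (Psmb8) without BAT8 and 2 (H2-Ab1 and Psmb8) without BAT1. Over all genes the share called also fell, from 10.2% to 3.46% without BAT6, 5.8% without BAT8 and 6.93% without BAT1, and without BAT6 an unadjusted p under 0.05 was reached by 18% of genes.

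When each gene was regressed on the interferon mean over the 23 inguinal clones, 0.331% of 12706 genes passed in limma and 0 of 9 members. At an unadjusted p under 0.05 it was 12.9% of all genes and 1 of 9 members, Tap1, with a slope of 0.41 (SE 0.14, adjusted p 0.204). With all 26 clones and a depot term the slope of Tap1 was 0.42 with a limma adjusted p of 0.0372. That fit takes in BAT6, with an interferon mean of 7.38 against 9.14 to 11.03 in inguinal clones. BAT6 also had the lowest Tap1, at 7.34, and how far it carries this slope was not tested. Over all genes, 0 to 83 passed across the alternatives to the fit on this mean. H2-Ab1 had a slope of -0.85 (SE 0.42, adjusted p 0.392) in limma, with a 95% interval from -1.71 to 0.01. Psmb8 and Psmb9 had slopes of 0.26 each, with SE of 0.17 and 0.20. The genes of the interferon list themselves are not part of these counts.

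**Figure D5:**
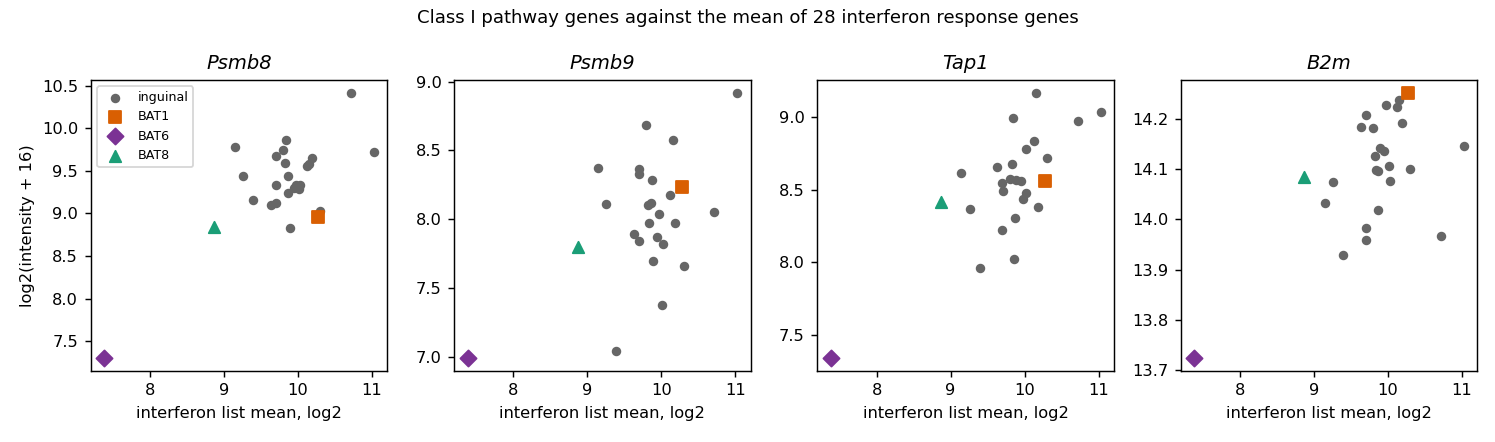
Log2 value (y axis) of Psmb8, Psmb9, Tap1 and B2m against the mean of 28 interferon response genes (x axis, log2) in inguinal clones (grey) and BAT1, BAT6 and BAT8 (coloured). BAT6 is at the lowest point of both axes in all 4 panels, with a list mean of 7.38.

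The degree of fat cell differentiation differed between clones and was followed by the mean of 10 adipocyte genes, which ran from 7.92 in I2 to 11.46 in D12 and was 11.28, 10.92 and 10.52 in BAT1, BAT6 and BAT8. On this mean 8.86% of 12724 genes had a slope that passed in limma over the inguinal clones, and 0 of 9 members did. Psmb9 had a slope of 0.22 (SE 0.08, adjusted p 0.0892) with an unadjusted p of 0.0112 in limma. It was the 1 of 9 members with an unadjusted p under 0.05, which 2906 of 12724 genes had. Without A3 the adjusted p of Psmb9 was 0.0393 in limma and it was called. Over all genes 677 to 1272 passed when single clones were left out. H2-Ab1 had a slope of 0.10 (SE 0.20).

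Some class I heavy chains rose with the adipocyte mean. Of 17 class I chain genes 9 were on the array and 8 were tested, and 3 rose with the adipocyte mean in limma. Over all genes 730 of 12724 rose. The 3 chains are H2-K1 with a slope of 0.31 (SE 0.08, adjusted p 0.0101), H2-D1 with 0.28 (SE 0.07, adjusted p 0.0185), both classical heavy chains, and Cd1d1, which presents lipids, with 0.61 (SE 0.08, adjusted p 2.87e-06). The probe set names of H2-K1 and H2-D1 carry the maker's mark for probes that can match other sequences. They may therefore not be separate results. H2-K1 had an inguinal median of 13.25 and H2-D1 one of 13.47, and BAT6 was low for both, at 12.55 and 12.74, with 2 inguinal clones lower still for each. In the depot comparison 1 of the 8 passed, H2-Q10, against 10.2% of all genes, but at 5.24 in inguinal clones it was dim. H2-Q10 lay above the array median in 2 inguinal and 2 interscapular clones. It met the filter of 3 arrays only with interscapular clones counted, so its call is not independent of the filter. Its difference was 0.89 (SE 0.25, limma adjusted p 0.0217) and it passed without BAT6 but not without BAT1 (0.76, adjusted p 0.134) or BAT8 (0.73, adjusted p 0.151).

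Ifngr1 and Cd40, also tied to antigen presentation, differed between depots. Ifngr1, the ligand-binding chain of the interferon gamma receptor, was higher in interscapular clones, at 10.29, 10.67 and 10.25. Inguinal clones ran from 8.68 to 10.00 with a median of 9.45. The depots thus did not overlap, which held for 2.87% of all genes. The difference was 0.96 (SE 0.21, limma adjusted p 0.00354), and it was 0.82 without BAT6 with a limma adjusted p of 0.0634. Ifngr1 was the 1 of 16 tested regulators that passed, against 10.2% of all genes. It also rose with the adipocyte mean with a slope of 0.22 (SE 0.07, limma adjusted p 0.0322). Cd40, a receptor that antigen presenting cells use to receive T cell help, was lower, at 6.70, 6.23 and 6.84 against 6.42 to 8.81, with a difference of -1.36 (SE 0.35, limma adjusted p 0.0114) that did not pass without BAT6 (-1.18, adjusted p 0.122). Cd274, the checkpoint ligand PD-L1, rose with the adipocyte mean with a slope of 0.40 (SE 0.07, limma adjusted p 0.000232), and its depot difference was 0.02 (SE 0.27).

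Single inguinal clones stood at the ends of several class I pathway genes. E3 was the lowest inguinal clone for Psmb9, Tap1 and B2m, at 7.05, 7.96 and 13.93, with an interferon list mean of 9.39. The list means of X3 and F9 were lower still, at 9.14 and 9.26. G10 was the lowest for Psmb8, at 8.83, and G18 the lowest for Tapbp, at 10.81. The list means of G10 and G18 were 9.89 and 10.02, near the inguinal mean of 9.92. D16 was the highest for Tap1, Tapbp and B2m, at 9.17, 12.05 and 14.24, with a list mean of 10.15. N13, the highest for Psmb8 at 10.41, had a list mean of 10.72, and its Psmb9 was at 8.05, the inguinal median. A3, with the highest list mean of 11.03, was the highest for Psmb9. The clone that led in H2-Ab1, B5, was the second highest inguinal clone for Psmb8, at 9.86, and the third highest for Tap1, at 8.99, and its B2m was at 14.10.

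Correlations between the 9 tested members over the inguinal clones ran from -0.44 (Ciita and Tapbp) to 0.50. Besides Psmb8 with Psmb9, the pairs Psmb9 and Tapbp (Pearson r 0.46), Tap1 and B2m (0.40), Psmb9 and B2m (0.38) and Psmb8 and Tap1 (0.38) were the highest among class I pathway members. Psmb9 and Tap1, which share the upstream region shown above, had r of 0.35 and a Spearman rho of 0.16. H2-Ab1 had r of -0.41 with Cd74, -0.36 with Tap1 and 0.15 with Ciita. All these describe 23 clones on 1 array each, with no test.

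The genes whose level followed the members most closely were found over the same 23 clones by Pearson correlation. For the mean of the 4 tested class II genes, which H2-Ab1 dominates, they were Car12, a carbonic anhydrase, with r of 0.79, S100a13 with 0.78, Trav9d-3 and Tcf25 with 0.73, and Foxb1, Vwa1, Trappc6a and Ogfod3 with 0.72. For the mean of the 5 class I pathway genes they were BC023105 with 0.78, H2-M10.1 with 0.76, Stat5a, a cytokine-activated transcription factor, with 0.74, Hddc3 with 0.72, Tmem106a with 0.71, Gm4951 with 0.70, Mvp, the major vault protein, with 0.67, and Lrp3 with 0.66. Of these, H2-M10.1 and Foxb1 had inguinal means of 6.10 and 6.01, close to the array median.

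Scan and chip batches divided the depots unevenly, so the 2 calls were repeated within each batch that holds both. A scan session is here a group of scan dates that lay close together, and it can span several days. Scan session 1 held 17 inguinal arrays with BAT1 and BAT8, session 2 held 3 with BAT6 (the same 4 arrays as chip lot 4), scanner 1 held 12 with BAT8 and scanner 2 held 11 with BAT1 and BAT6. The difference of H2-Ab1 was 2.01 in session 1, 1.86 in session 2, 2.67 on scanner 1 and 1.60 on scanner 2, and limma adjusted p lay between 0.0663 and 0.248. The difference of Psmb8 was -0.46 in session 1 (adjusted p 0.211), -2.20 in session 2 (adjusted p 0.0222), -0.68 on scanner 1 (adjusted p 0.557) and -1.26 on scanner 2 (adjusted p 0.0242) in limma. Within chip lot 2, which held 4 inguinal arrays with BAT1 and BAT8, they were 2.61 and -0.49, and within fluidics stations 1 and 7 they were 2.12 and 2.64 (adjusted p 0.0205 in limma) for H2-Ab1 and -0.77 and -1.31 for Psmb8. These batches share the same 3 interscapular clones and are not repeats of each other. Session 2, scanner 1 and station 1 (4 inguinal arrays with BAT8) hold 1 interscapular clone each, so the spread behind their p-values comes from inguinal clones alone, and the lone clone is assumed to vary like them. Station 7 held 2 inguinal arrays with BAT1 and BAT6.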

How the data were processed

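The authors deposited 1 table of intensity values for 45101 probe sets on 26 arrays, and 1 experiment file per array with scanner and chip records, which served here as batch codes. The files give a scan date and no session, and scan sessions were formed here by joining dates that lay close together. For the summary and scaling steps behind these intensity values, the software was not given in the sources used here. Without further scaling, the deposited intensity values were used as log2(intensity + 16). Of the probe sets, 34945 carried 1 gene symbol in the platform annotation, 932 several and 9160 none, and 64 were controls. Array medians lay between 40.4 and 45.8 intensity units.

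A gene was read from its brightest probe set and kept when above the array median on at least 3 arrays, which left 12734 of 18193 genes. Linear models across all kept genes were fitted in R 4.3.3 with lmFit and eBayes of limma 3.58.1, and two-sided p-values were adjusted by Benjamini-Hochberg. There were 4 fits, the depot difference over 26 arrays and, over the 23 inguinal arrays, the slopes on Ciita, on the interferon list mean and on the adipocyte list mean, with genes of a list left out of the counts on its own mean. The members were also compared by an exact permutation test over 2600 choices of 3 arrays. The scripts were tested on simulated data. Named genes were the members, the genes of the wider lists that passed, and the 8 genes most correlated with the class II and the class I pathway mean. Genes of the wider lists named beside them without passing were chosen after their values were seen. Members, lists and tests were chosen with earlier results of these data known. The labels pair no clones across depots. Scaling, pseudocount, filter, probe set rule, batch terms, covariates and single clones left out were the alternatives. With 3 interscapular arrays, their number limits the precision. Promoters came from RefSeq tables. Figures were drawn with matplotlib 3.10.9.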

Additional observations from a re-analysis of the deposited data

How the results depend on the processing

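Of the 9 members tested, 2 passed in the depot comparison. The count was 1 with probe sets averaged, 0 within scan session 1, 1 within session 2, 0 within scanner 1, 1 within scanner 2, 0 with the interferon mean as a covariate and, in alternatives chosen after seeing the data, 0 within chip lot 2, 0 within fluidics station 1 and 1 within station 7. Leaving out single clones gave 0 to 2, with 0 without BAT6 and 1 without BAT8. Over all genes, 1299 passed, and 622 with fluidics station as a block, 550 and 208 within sessions 1 and 2, 101 and 644 within scanners 1 and 2, 99 within chip lot 2, 25 and 67 within stations 1 and 7 and 462 with the interferon covariate, with 440 to 1551 when single clones were left out. H2-Ab1 and Psmb8 kept their direction in all alternatives, from 0.97 to 2.67 and from -2.20 to -0.46. Other members changed sign, from main values of -0.00114 for Tapbp, -0.09 for B2m, -0.38 for Psmb9, -0.47 for Tap1, 0.27 for H2-Eb1 and 0.19 for Ciita. Tapbp was 0.0020 with scanner as a block, 0.080 with station as a block, 0.040 without A3 and A5, 0.021 with array weights, 0.18 with the interferon covariate, 0.17 within session 1, 0.11 within scanner 1, 0.21 within chip lot 2, 0.036 within station 1, 0.12 within station 7 and -0.056 to 0.11 when single clones were left out. B2m was 0.065 within session 1, 0.012 within scanner 1, 0.00032 within chip lot 2, 0.042 with the interferon covariate and -0.20 to 0.061 when single clones were left out. Psmb9 was 0.043 within session 1 and 0.042 within chip lot 2, Tap1 0.036 with probe sets averaged, H2-Eb1 -0.11 within station 1 and Ciita -0.020 within station 7. The cause was not tested.

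For the slope on Ciita, 1 gene passed with probe sets averaged and none otherwise. For the slope on the interferon mean 42 genes passed, and 69 with probe sets averaged, 83 with every probe set tested, 82 with chip lot as a block, 17 without A3 and A5, 0 within session 1, 1 and 11 within scanners 1 and 2, 3 without the 2 clones farthest from the median and 10 to 79 when single clones were left out. With all 26 arrays and a depot term 1 member passed, Tap1, in a fit where BAT6 lies below the inguinal range of the interferon mean. The slope of Psmb8 was -0.030 and -0.061 with session and chip lot as a block, -0.077 within session 1 and -0.11 without the 2 farthest clones. That of Psmb9 was -0.012 without A3 and A5 and within scanner 1, -0.034 without the 2 farthest clones and -0.011 to 0.39 when single clones were left out, and that of H2-Ab1 was 0.090 within scanner 2. For the adipocyte mean 1127 genes passed, and 675 and 440 with chip lot and station as a block, 384 and 403 within scanners 1 and 2, 624 without the 2 farthest clones and 677 to 1272 when single clones were left out. There 1 member, Psmb9, passed without A3 and A5, and 0 to 1 when single clones were left out. The slope of H2-Ab1 was -0.20 within scanner 2, -0.017 without the 2 farthest clones and -0.015 to 0.15 when single clones were left out. No paired analysis was possible because the labels pair no clones across depots.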
